A study of Oryctolagus cuniculus with 4 samples.

Results

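The cells described here are the proliferation candidates of the rabbit bladder mucosa, chosen by the UMI counts of TOP2A and CDK1 in each cell. A UMI (unique molecular identifier) marks 1 captured RNA molecule, so that amplification copies are counted once. A cell was a member when it carried at least 2 UMIs of TOP2A, or at least 1 UMI of TOP2A and at least 1 UMI of CDK1. There were 1086 such cells among 21945 cells with at least 500 UMIs, at least 200 detected genes and at most 15% mitochondrial UMIs, a share of 4.95%. Because the 2 genes chose the cells, their levels against those of other cells, and those of every gene that moves with them in the same cells, are given as a description with no test. Tests were run between conditions and between lineages.

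The cells came from adult New Zealand rabbits and were sequenced as droplet-based 3′ libraries, 1 library per sample. For Injury_1 and Injury_2 a patch of mucosa was resected, and the regrown area was sampled on day 10, once its epithelial cover had closed. Normal_1 and Normal_2 were mucosa under homeostasis. The resection was made under pentobarbital anaesthesia, and no transgene or selection marker was named for either group. The labels do not say which rabbit each library came from, so the p-values measure the spread between these 4 samples.

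TOP2A encodes topoisomerase IIα, which untangles sister chromatids before they separate, and CDK1 encodes the kinase that drives entry into mitosis. Transcripts of both genes accumulate in S phase and peak in G2 and M, together with those of kinetochore proteins, spindle motors, mitotic cyclins and condensins. Replication genes such as PCNA and the MCM helicase are expressed earlier, from late G1 into S phase. In the resting bladder the urothelium and the underlying stroma turn over slowly, and resection brings immune cells, fibroblasts and new vessels into the wound bed.

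The deposited totals ran from 28745017 UMIs in Normal_1 to 47881609 in Normal_2, and the kept cells had a median of 4813.5 UMIs in Normal_1 against 6755 to 7186 in the other samples. The members were deeper than the other kept cells, with a median of 8070 against 6376 UMIs. The tissue was labelled urothelium, but only 1303 kept cells carried the keratin flag alone, against 5875 with the fibroblast flag alone and 5421 with the endothelial flag alone. Several standard proliferation markers, MKI67, CCNA2, CCNB1, RRM2 and TYMS among them, were not among the 9771 gene symbols paired with the 18475 measured genes and were not analysed here. Of the barcodes, 67 occurred in more than 1 sample, and 5 member cells, all of them in Injury_1, carried such a barcode.

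The label of cycling cells was checked against the G2/M list, which held 63 measured genes besides TOP2A and CDK1. It held for the cells with at least 2 UMIs of TOP2A and at least 1 of CDK1, and not for most of the others. The 250 cells with at least 2 UMIs of TOP2A and at least 1 of CDK1 (double-positive cells) expressed a median of 30 of the 63 genes, and 225 of them (90%) expressed at least 10. The 733 cells with at least 2 UMIs of TOP2A and no CDK1 UMI (TOP2A-only cells) expressed a median of 1 of the 63 genes, as did the cells outside the rule, and 35 of them (4.77%) expressed at least 10. The 103 cells with 1 UMI of TOP2A and at least 1 of CDK1 lay between these classes, with a median of 2 genes and 25 cells with at least 10. Hence 67.5% of the members were TOP2A-only cells, and the members as a whole are called TOP2A-selected cells below.

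The double-positive class itself had 2 separate modes. In it 16 cells expressed at most 2 of the other G2/M genes and 3 cells expressed 6 to 9, beside the 225 with at least 10. Depth moved with the class, since double-positive cells had a median of 11505.5 UMIs and TOP2A-only cells one of 7236. The part of depth in the difference in gene number was not tested.

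**Figure D1:**
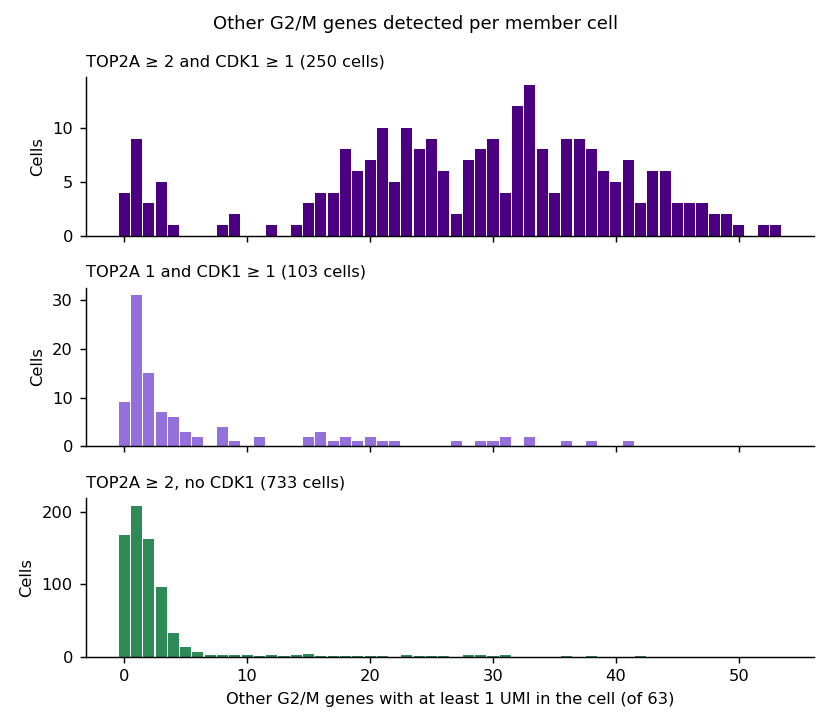
Number of member cells (vertical axis, linear) by the number of other G2/M genes with at least 1 UMI in the cell (horizontal axis, of 63), for the 3 branches of the rule. Double-positive cells form a broad group around 30 genes and a small one at 0 to 4, whereas TOP2A-only cells pile up at 0 to 4 genes.

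At the threshold, cells with 2 TOP2A UMIs were close to the cells outside and cells with 1 UMI of each gene were higher. The 1956 cells just outside, with 1 TOP2A UMI and no CDK1, held 2.84 G2/M UMIs per 10000, TOP2A and CDK1 left out. The 514 cells just inside, with 2 TOP2A UMIs and no CDK1, held 3.62 per 10000, and the 74 cells with 1 UMI of each gene held 7.32. Cells with neither gene held 2.29 and cells with at least 2 UMIs of both held 66.4 per 10000. A higher TOP2A count alone moved cells only part of the way, because 14 of the 73 cells with at least 4 TOP2A UMIs and no CDK1 (19.2%) expressed at least 10 other G2/M genes. Of cells with at least 2 TOP2A UMIs, 192 of 195 (98.5%) with at least 2 CDK1 UMIs expressed that many, against 33 of 55 (60%) with 1 CDK1 UMI, and so did 175 of 178 cells (98.3%) with at least 4 TOP2A UMIs and at least 1 of CDK1. Depth moved with this, at medians of 12273, 8969 and 12230 UMIs. The rule also missed some cells with the programme. Outside it, 70 of 20859 cells (0.336%) expressed at least 10 of the genes, and 36 of these had neither TOP2A nor CDK1.

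The share of TOP2A-selected cells did not differ between conditions beyond the spread of the samples, while double-positive cells were more frequent in both injured samples. Members made up 4.77 and 5.84% of kept cells in Injury_1 and Injury_2, and 5.85 and 3.67% in Normal_1 and Normal_2. The ranges of the conditions overlapped, at 5.31 ± 0.759% in injured and 4.76 ± 1.54% in normal samples (SD, n = 2 each), and the difference of 0.547 percentage points had a 2-sided exact permutation p of 1. With 2 samples against 2 this test cannot go below 0.33. Thinning every cell to 2000 UMIs gave 1.22 ± 0.133% and 1.26 ± 0.482% (exact p = 1).

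Double-positive cells made up 1.58% of kept cells in Injury_1 (95% Wilson interval 1.29 to 1.92%) and 1.34% in Injury_2 (1.07 to 1.68%). In the normal samples the shares were 0.534% in Normal_1 (0.356 to 0.800%) and 0.946% in Normal_2 (0.731 to 1.22%). The injured samples did not overlap the normal ones, with means of 1.46 ± 0.17% and 0.740 ± 0.291% (SD, n = 2 each) and an exact p of 0.33, the smallest this design allows. After thinning the injured and normal samples overlapped, at 0.247 and 0.186%, a difference of 0.0604 percentage points (exact p = 1). The lower depth of Normal_1 moves with its low share. Cells with a high doublet score were also more frequent among the double-positive cells of the injured samples, at 21 of 96 and 15 of 74, than in the normal ones, at 0 of 23 and 2 of 57, and their part in the difference was not tested.

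TOP2A-only cells had another order, at 2.32 and 3.98% in Injury_1 and Injury_2 and 5.11 and 2.52% in Normal_1 and Normal_2. The shallowest sample had the highest share, and 1 sample of each condition was low. The intervals here and above cover counting error only.

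**Figure D2:**
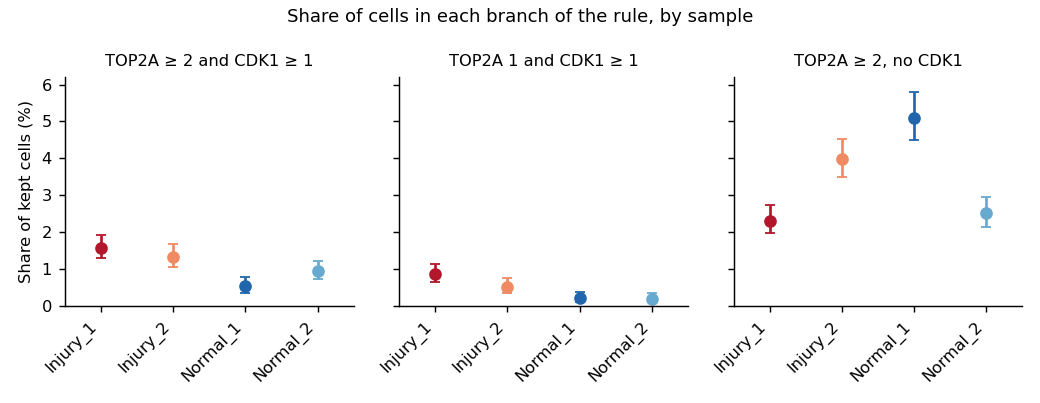
Share of kept cells (percent, linear axis) in each branch of the rule, 1 point per sample with its 95% Wilson interval. Double-positive cells lie at 1.34 and 1.58% in the injured samples and at 0.534 and 0.946% in the normal ones, whereas TOP2A-only cells are highest in Normal_1 at 5.11%.

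The members came from every lineage examined. Lineages were read from flags in the cell: DCN and LUM, small matrix proteoglycans of fibroblasts, at 0.5% of UMIs or more, KRT15, KRT18 and KRT7, epithelial keratins, at 0.2% or more, and at least 1 UMI of PTPRC (CD45 of leukocytes), of PECAM1 or CDH5 (endothelial junction proteins) or of MYH11 (smooth muscle myosin). Fibroblast cells by a single flag gave 320 members, endothelial cells 277, smooth muscle cells 127, immune cells 83 and epithelial cells 20. A further 175 members carried several flags and 84 none. Among pairs of flags, fibroblast with smooth muscle was seen in 71 members and immune with endothelial in 37, of which 26 were double-positive. Members with several flags were deeper than the members as a whole, with a median of 10280 UMIs, and the part of doublets in them was not tested.

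The flags were checked with genes the rule did not use. Fibroblast members expressed COL3A1 at 33211 CPM (UMIs of the gene per 1000000 UMIs of the cells summed) and COL1A1 at 12065 CPM. Endothelial members expressed VWF, a clotting factor of vessel walls, at 2408 CPM and the venous adhesion receptor SELP at 1208 CPM. Smooth muscle members expressed ACTA2 at 4257 CPM, the visceral actin ACTG2 at 791 CPM and the pericyte gene RGS5 at 443 CPM. With samples pooled, the matrix list summed to 39054 CPM in their double-positive and 26269 CPM in their TOP2A-only cells. Their contractile list summed to 10915 and 19611 CPM. The matrix sums were 127058 and 136427 CPM in fibroblast and 8455 and 7811 CPM in endothelial members. The study named its myofibroblasts by ACTA2, MYH11 and COL1A1, so smooth muscle stands here for the MYH11 flag. Whether myofibroblasts or mural cells of vessels carry this flag too was not tested.

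The make-up of the members differed between lineages. With samples pooled, 71.1% of the immune members were double-positive, against 45% of the epithelial, 26.0% of the smooth muscle, 14.8% of the endothelial and 10.6% of the fibroblast members. The order was not the same in every sample. Endothelial and fibroblast members stood at 9.24 and 11.9% in injured samples and at 19.0 and 8.47% in normal ones. In Injury_1 the epithelial share was 71.4% and the immune share 69.5%. In Normal_1 both were 0%, of 4 and 1 members. TOP2A-only cells made up most members of the fibroblast, endothelial and smooth muscle lineages. Few of them had the programme, with at least 10 other G2/M genes in 2 of 255 TOP2A-only fibroblasts and in 1 of 87 TOP2A-only smooth muscle cells. In the immune lineage 5 of 10 did, and among endothelial cells 12 of 70 in Normal_1 against 0 of 46, 1 of 46 and 0 of 50 in the other 3 samples.

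Double-positive fibroblasts numbered 7 and 17 in Injury_1 and Injury_2 and 2 and 8 in Normal_1 and Normal_2, shares of 0.414, 0.869, 0.258 and 0.551% of that lineage. Double-positive endothelial cells numbered 6, 5, 15 and 15 in the same order, shares of 0.474, 0.547, 0.894 and 0.960%. Both normal samples lay above both injured ones in endothelial cells, and the edgeR quasi-likelihood test gave a log2 fold change of −0.86 and a Benjamini-Hochberg adjusted p of 0.209. The same test on double-positive cells gave larger values in the other direction for immune cells, 3.26 ± 1.08 (SE, edgeR adjusted p = 0.129), and for cells with several flags, 2.31 ± 0.73 (0.129). Both were below 0.05 unadjusted, at 0.0369 and 0.0316 by edgeR, and neither passed after adjustment. The endothelial direction depended on the rule. Chosen by 4 other G2/M genes, endothelial cells were 74 of 1267 and 81 of 914 in Injury_1 and Injury_2. In Normal_1 and Normal_2 they were 94 of 1677 and 67 of 1563, both lower shares than in the injured samples. The log2 fold change was then 0.56 (edgeR adjusted p = 0.181), and it was above 0 in every class. Double-positive cells with several flags were 24 of 1180 and 21 of 1017 cells in Injury_1 and Injury_2, and 0 of 478 and 7 of 1206 in Normal_1 and Normal_2. Double-positive smooth muscle cells made up 2.35, 1.70, 1.24 and 1.41% of their lineage. The counts behind these shares were 7, 6, 5 and 15 cells, and their intervals overlapped.

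Immune cells carried the widest difference between conditions. The members among them were 59 of 678 cells in Injury_1 and 22 of 465 in Injury_2, against 1 of 103 in Normal_1 and 1 of 104 in Normal_2. These are shares of 8.70, 4.73, 0.971 and 0.962%, and both injured samples lay above both normal ones. The quasi-likelihood test of edgeR on the number of members, with the number of cells of the lineage as offset, gave a log2 fold change of 2.76 ± 0.94 (SE), an unadjusted p of 0.0106 and an adjusted p of 0.0743 over 7 classes. It did not pass the threshold of 0.05, and no other class came near it, with log2 fold changes from −0.24 to 0.41 and an adjusted p of 0.866. Only 1 class, the immune cells, was below 0.05 unadjusted. Without the mitochondrial limit the immune cells passed, with a log2 fold change of 2.90 and an edgeR adjusted p of 0.0384. With all kept cells as offset the value was 4.99 (edgeR adjusted p = 0.000291). That offset asks another question, since it takes in the number of immune cells, 9.84% of injured and 2.00% of normal kept cells. With a mitochondrial limit of 10%, which left 0 immune members in Normal_2, the log2 fold change within the lineage was 2.71 (edgeR adjusted p = 0.386). It was far smaller when every cell with the PTPRC flag was counted, at 0.99 (edgeR adjusted p = 0.893), and with 1 TOP2A UMI as the rule, at 0.87 (0.787). The normal samples rest on 1 member each, and the immune members of Injury_2 were deep, with a median of 19721.5 UMIs against 3653 in its other immune cells.

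On the mean over the 4 samples, smooth muscle cells had the highest thinned share of members and epithelial cells the lowest, and this order did not hold for double-positive cells. At 2000 UMIs per cell the shares were 2.48 ± 1.01% in smooth muscle, 1.56 ± 1.45% in immune, 1.13 ± 0.810% in fibroblast, 1.02 ± 0.257% in endothelial and 0.366 ± 0.386% in epithelial cells (SD, n = 4). Smooth muscle cells exceeded fibroblasts by 1.35 points, endothelial cells by 1.46 points and epithelial cells by 2.11 points, each in 4 of 4 samples. Epithelial cells lay below endothelial cells by 0.657 points and below immune cells by 1.19 points, again in 4 of 4 samples. The 2-sided exact sign-flip test gave 0.13 for each of these 5 pairs, the smallest p that 4 samples allow, and 0.25 after adjustment over 10 pairs. The remaining 5 pairs, among them fibroblast against endothelial cells, changed sign between samples. In double-positive cells the thinned means were 0.456% in immune, 0.424% in smooth muscle, 0.175% in epithelial, 0.144% in fibroblast and 0.0970% in endothelial cells. Chosen by 4 other G2/M genes, cells made up 4.55% of immune, 2.21% of smooth muscle, 1.22% of epithelial, 1.14% of endothelial and 0.541% of fibroblast cells. Without thinning, smooth muscle cells lay above fibroblast and endothelial cells in only 2 of 4 samples each, and with 1 TOP2A UMI as the rule in 2 and 3 of 4.

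**Figure D3:**
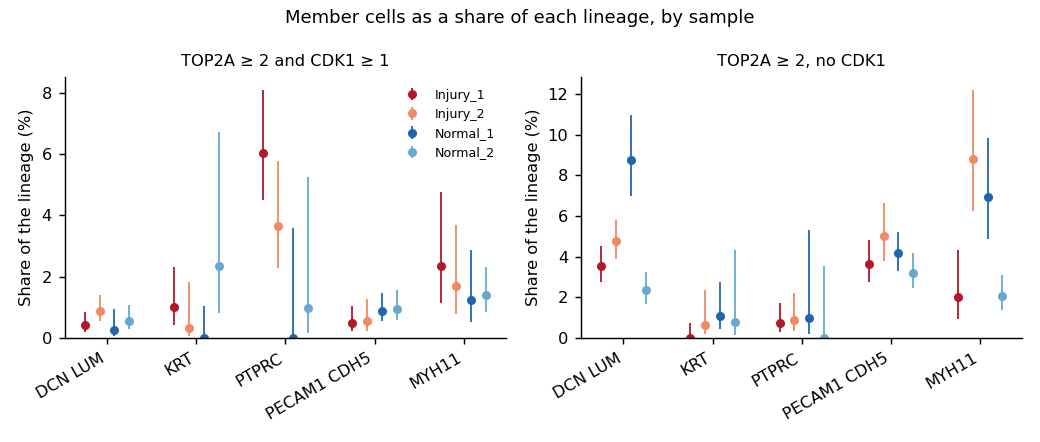
Double-positive (left) and TOP2A-only (right) cells as a percent of the kept cells with that single lineage flag, 1 point per sample with its 95% Wilson interval. Immune double-positive cells stand at 6.05 and 3.66% in Injury_1 and Injury_2 against 0 and 0.962% in Normal_1 and Normal_2, and TOP2A-only fibroblasts are highest in Normal_1 at 8.79%.

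To see which genes went along with TOP2A and CDK1, members were set against other cells of the same sample with the same flags and the nearest UMI totals, 3 for each member. The nearest totals left the double-positive cells of the injured samples deeper than their matched cells, with medians of 11837 and 13718.5 against 9407 and 11158.5 UMIs, where the normal samples had 8005 and 11469 against 8022 and 10993. Folds were taken after adding 10 CPM, and a gene counted when it was at least 2-fold higher, or lower, in all 4 samples. Over all members, 65 of 13586 genes (0.478%) were higher and 0 (0%) were lower. In double-positive cells 199 of 12221 genes (1.63%) were higher and 5 (0.0409%) were lower. In TOP2A-only cells 1 gene of 12926 (0.00774%), TOP2A itself, was higher and 0 (0%) were lower. The rule used this contrast, so the counts describe the cells and carry no test.

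The selecting genes themselves were sharply raised in double-positive cells. TOP2A stood at 520 and 577 CPM in Injury_1 and Injury_2 and at 925 and 762 CPM in Normal_1 and Normal_2 (the order of all 4 values below), against 6.36 to 23.9 CPM in matched cells. CDK1 stood at 289, 307, 205 and 461 CPM against 1.71 to 18.7 CPM. In TOP2A-only cells TOP2A reached 270, 294, 408 and 276 CPM, against 12.4 to 31.2 CPM in their matched cells.

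Genes of mitosis were the most uniform group. Of the 63 G2/M genes 53 passed the fold in double-positive cells, with a median log2 fold of 2.60 beside 0.01 over all genes, and their summed level was 7084 CPM against 343 CPM. TPX2, which nucleates spindle microtubules, was at 295, 267, 765 and 419 CPM in the 4 samples against 20.9, 7.95, 1.71 and 4.33 CPM in matched cells. Kinetochore genes were close behind. KNL1, the scaffold of the outer kinetochore, was at 263, 235, 632 and 293 CPM against at most 13.9 CPM, and its partners NUF2 and NDC80, which bind microtubule ends, had mean log2 folds of 4.26 ± 0.67 and 3.91 ± 1.09 (SD, n = 4). The centromere motor CENPE stood at 415, 446, 796 and 479 CPM against 13.5 to 59.8 CPM.

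For TPX2, KNL1, NUF2, NDC80 and CENPE the highest level was in Normal_1, whose double-positive cells were the fewest. CCNB2, a B-type mitotic cyclin, was at 127, 193, 277 and 163 CPM and at 0 CPM in the matched cells of both normal samples. The spindle motor KIF11, the spindle protein DLGAP5, the cytokinesis scaffold ANLN and the formin DIAPH3 had mean log2 folds of 3.85, 3.84, 3.88 and 4.02. Condensation of chromosomes was covered by SMC2 and SMC4, the ATPase arms of condensin. SMC2 was at 605, 434, 935 and 642 CPM against 47.2, 19.5, 23.9 and 31.2 CPM, and SMC4 had a mean log2 fold of 3.16 ± 0.50. The condensin and chromatin list had 10 of 13 genes past the fold with a median log2 fold of 1.87. The tubulin gene TUBB, a building block of the spindle, was at 937 to 1366 CPM against 168 to 372 CPM.

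Genes of DNA replication were raised less and in fewer members of their list. Of 33 S phase genes 15 passed the fold in double-positive cells, with a median log2 fold of 1.28 and summed levels of 3329 against 871 CPM. PCNA, the sliding clamp of DNA polymerase, was at 1056, 810, 919 and 885 CPM against 206, 168, 243 and 158 CPM. The helicase subunits MCM3 and MCM5 had mean log2 folds of 2.41 ± 0.32 and 2.33 ± 0.56, and MCM4 and MCM2 ones of 1.41 and 0.95. MCM5 was lowest in the normal samples, at 66.8 and 138 CPM against 260 and 242 CPM in the injured ones. RRM1, the large subunit of ribonucleotide reductase, had a mean log2 fold of 2.29 ± 0.35, and the histone chaperone NASP one of 1.05.

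The repair and histone groups followed. In DNA repair 9 of 19 genes passed, led by RAD51AP1, a helper of homologous recombination, at 88.8, 106, 164 and 129 CPM against 0 to 3.98 CPM. Among the histone genes 4 of 13 passed, with the linker histone H1-1 at 134.8, 70.6, 97.6 and 157 CPM against 0 to 6.02 CPM. Poly(A) capture sees replication-dependent histone messages poorly. In the nucleotide synthesis list 1 of 14 genes, RRM1, passed the fold, and the nucleoside diphosphate kinase NME1 reached a mean log2 fold of 1.32.

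Brakes and drivers of G1 did not form a group. Among 14 brakes 1 passed, CDKN2C (p18, an inhibitor of CDK4 and CDK6), at 61.3, 60.7, 175 and 127 CPM against 7.60, 13.1, 10.3 and 3.85 CPM. The p27 gene CDKN1B was at 19.2 to 26.0 CPM against 14.4 to 17.1 CPM. The antiproliferative gene BTG2 was lower in all 4 samples, at 275, 458, 97.6 and 896 CPM against 499, 786, 166 and 1288 CPM, and so were GADD45A and TOB1. None of 9 G1 genes passed. The nucleolar protein NCL was higher in all 4 samples with a mean log2 fold of 0.61, while the cyclin CCND2 was lower in 3 of 4.

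None of the matrix, contractile or immediate early genes passed the fold in double-positive cells, and part of each list was lower in all 4 samples. Of 23 matrix genes 13 were lower in all 4 samples, as were 7.73% of all 12221 genes, weakly expressed ones included, with a median log2 fold of −0.55 and summed levels of 26778 against 37280 CPM. COL3A1 was at 5162, 8972, 1536 and 10018 CPM against 5741, 14232, 3303 and 12025 CPM, and fibronectin, FN1, had a mean log2 fold of −0.85. Of 10 contractile genes 4 were lower in all 4 samples, with a median log2 fold of −0.44 and summed levels of 2457 against 3410 CPM, which were higher than in matched cells in Normal_1, at 2774 against 2686 CPM. Among 10 immediate early genes 5 were lower in all 4 samples, with IER3 at a mean log2 fold of −0.58 and ZFP36, which destabilises cytokine messages, at −0.60. Of the 5 genes that passed the fold downwards, EMILIN2, an elastic fibre glycoprotein, was at 55.9, 96.9, 41.1 and 38.3 CPM against 166, 249, 174 and 99.0 CPM. INHBA, the βA subunit of activin, had a mean log2 fold of −1.42 and MVP, the major vault protein, one of −1.06. Summed levels of 14 ribosomal protein genes were close, at 56592 against 60456 CPM.

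**Figure D4:**
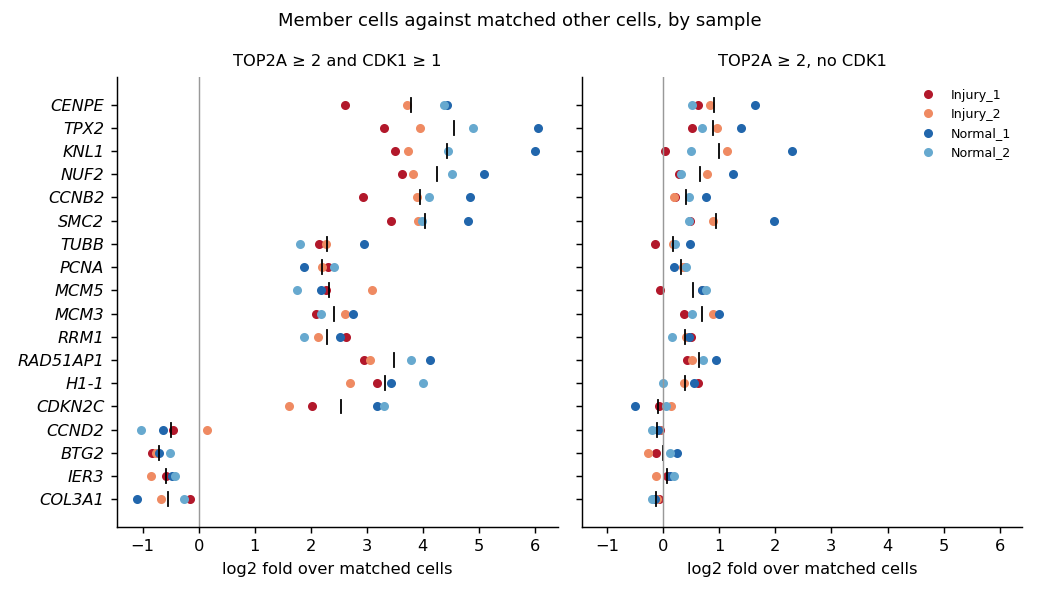
Log2 fold of members over matched cells, after adding 10 CPM, for 18 genes in double-positive (left) and TOP2A-only (right) cells; points are samples and the bars their means. Mitotic genes such as TPX2 and KNL1 lie between 3 and 6.1 on the left, whereas on the right only Normal_1 exceeds 2, for KNL1.

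TOP2A-only cells carried little of this. None of the 63 G2/M genes and none of the 33 S phase genes passed the fold, with median log2 folds of 0.26 and 0.17, and 27 of the G2/M genes were higher in all 4 samples at any fold, as were 7.23% of all 12926 genes. Their summed G2/M level was 345, 527, 876 and 292 CPM against 230, 249, 299 and 201 CPM in matched cells, highest in Normal_1. The highest mean log2 fold in the G2/M list was 0.99. SMC2 and CENPE had mean log2 folds of 0.95 ± 0.71 and 0.90 ± 0.51, and PCNA had one of 0.32. Brakes, matrix genes and ribosomal protein genes had median log2 folds of 0.06, −0.03 and −0.06.

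Within lineages the programme of the double-positive cells was seen in all 5, and the lineages ranked otherwise in mitotic than in replication genes. The median log2 fold of the G2/M list, with samples pooled, was 2.84 in smooth muscle, 2.73 in fibroblast, 2.28 in endothelial, 2.05 in epithelial and 1.85 in immune cells. The median of the S phase list was 1.71 in immune and 1.51 in epithelial cells against 1.27 in smooth muscle, 0.90 in fibroblast and 0.68 in endothelial cells. The pooled cells came from the conditions in unequal parts, with 58 of the 59 double-positive immune cells but 11 of the 41 endothelial ones from injured samples. In double-positive cells the G2/M over S ratio was lower in both injured samples than in both normal ones, at an exact permutation p of 0.33, as given further on. Immune cells had 25 of 33 S phase genes at least 2-fold higher and endothelial cells 11, beside 5.63% and 3.6% of all genes in the same pooled comparisons. In smooth muscle cells the contractile list was lower, with a median log2 fold of −0.94 and summed levels of 10915 against 19110 CPM. In immune cells 8 of 10 immediate early genes were at most at 50% of the matched level, beside 6.07% of all genes, and they summed to 927 against 4867 CPM. Depth moved with this, at medians of 9263 and 20626 UMIs in Injury_1 and Injury_2 against 7404 and 9039 in matched cells. Macrophage genes were also low in immune members, as given below, and the part of either was not tested. TOP2A-only cells had a G2/M median of 0.00 in fibroblast, smooth muscle and epithelial cells, 0.36 in endothelial cells and 1.59 in the 10 immune cells.

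Genes of T cells, macrophages and other leukocytes were set side by side in immune members and matched immune cells, with samples pooled and no test. Depth was not held here, at medians of 8732 and 19721.5 UMIs in the immune members of Injury_1 and Injury_2 against 6586 and 8600 in their matched cells. ZAP70, the kinase behind the T cell receptor, was at 278 CPM in them and 162 CPM in matched immune cells, and the actin regulator CORO1A at 2509 against 1208 CPM. The granzyme gene GZMH was at 794 against 294 CPM, almost all of it from Injury_1, at 1340 CPM against 9.23 CPM in Injury_2. Of the macrophage genes, AIF1 was at 102 against 1144 CPM, C1QA at 1.84 against 284 CPM, CSF1R at 25.7 against 239 CPM and CD74 at 254 against 1533 CPM. The mast cell gene CPA3 was at 0 in members and matched cells, and the B cell gene MS4A1 at 3.67 against 8.10 CPM. CD2, on T and natural killer cells, was at 93.7 against 106 CPM and did not separate the groups, and the genes of the CD3 complex were not among the symbols. CORO1A and GZMH were chosen after their values were seen.

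Only 20 members were epithelial, 7, 5, 4 and 4 in Injury_1, Injury_2, Normal_1 and Normal_2. KRT5, the keratin of basal urothelial cells, was at 522, 126, 567 and 45.8 CPM in them and at 206, 160, 99.7 and 120 CPM in matched epithelial cells. It was higher in Injury_1 and Normal_1 and lower in Injury_2 and Normal_2. TP63, the basal transcription factor, was at 39.2, 62.9, 0 and 18.3 CPM against 17.4, 10.5, 21.0 and 29.2 CPM. UPK1B, a uroplakin of the luminal plaque, was at 0 in all 4 samples, where matched cells had 6.51 CPM in Injury_1 and 0 in the other 3 samples and all other epithelial cells had 3.82 to 41.0 CPM, and UPK3B was at 58.8, 21.0, 0 and 0 CPM against 143, 52.3, 57.7 and 3.25 CPM. KRT18 was lower in the members of all 4 samples, at 803 to 1255 CPM against 1427 to 2174 CPM. These cells were deep, with a median of 20544.5 UMIs, and 9 of the 20 were double-positive.

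The balance of G2/M over S phase levels was similar in the conditions over all members. The ratio of the summed CPM was 1.25 and 1.44 in Injury_1 and Injury_2 and 1.31 and 1.50 in Normal_1 and Normal_2, a log2 difference of −0.06 (2-sided exact permutation p = 0.667). In double-positive cells the ratio was 1.51, 1.92, 2.87 and 2.26. Both injured samples lay below both normal ones there, by 0.58 on the log2 scale with an exact p of 0.33, the smallest possible, in a comparison chosen after seeing the data. The share of immune cells among the double-positive cells moves with this ratio, at 41 of 96, 17 of 74, 0 of 23 and 1 of 57, and its part was not tested.

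Injured and normal members were compared across genes by summing their UMIs per sample. In injured members PTPRC, IL1RL1 and the chemokine genes CCL19 and CCL21 rose, KAZALD1, LPL, HHIP and ADGRL4 fell, and no gene of the cell cycle lists was called. No list of leukocyte genes was tested. The quasi-likelihood test of edgeR called 66 of 6871 genes at a Benjamini-Hochberg adjusted p below 0.05, 61 higher (0.888%) and 5 lower (0.0728%) in injured members, and 796 genes had an unadjusted p below 0.05. Of the 28 S phase and 59 G2/M genes tested 0 were called, with median log2 fold changes of 0.48 and 0.39 beside 0.00 over all genes. Within the 3 lineages that could be fitted both medians were below 0, at −0.63, −0.33 and −0.20 for S phase and −0.29, −0.99 and −0.62 for G2/M genes in fibroblast, endothelial and smooth muscle members, again with 0 called. DESeq2 called 155 genes in all.

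Among called genes with a symbol and at least 20 CPM in injured members, the largest rises were in receptors of immune cells, lymphoid chemokines and 2 genes of growth factor signalling. IL1RL1, the interleukin-33 receptor of mast cells, type 2 lymphoid cells and regulatory T cells, was at 198 and 191 CPM in the injured samples and at 0 in both normal ones, at least 252-fold higher against a floor of 3 UMIs over both. FCER1A, the IgE receptor α chain, was at 20.4 and 22.4 CPM against 0, at least 27.8-fold higher. The lymphoid chemokine CCL21 was at 263 and 178 CPM against 0 and 1.34 CPM, a pooled ratio of 283 with a counting interval from 96.7 to 1376. CCL19, which binds the same receptor, was at 27.4 and 54.4 CPM against 0 and 0.893 CPM. EREG, a ligand of the epidermal growth factor receptor, was at 86.4 and 45.8 CPM against 0.605 and 0.893 CPM, a pooled ratio of 84.3 (28.7 to 411), and GFRA3, a receptor of the neurotrophic factor artemin, was at 29.7 and 12.9 CPM against 0.605 and 0.446 CPM. GFRA3 is also a marker of the neural cells of this tissue, as the study used it together with S100B and SCN7A. The summed level of these 3 genes was 116 and 66.98 CPM in injured and 12.1 and 0.893 CPM in normal members, and 32.9 and 51.7 against 5.27 and 0.937 CPM in matched cells. S100B was called too, at 40.4 and 23.9 against 3.02 and 0.446 CPM, and SCN7A was not. The part of neural cells in the GFRA3 difference was not tested. Adjusted p-values of the 6 genes before S100B by the edgeR quasi-likelihood test ran from 0.0116 to 0.0418.

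ZAP70, ICOS, CTLA4 and CD28, which T cells express, were also called higher, and no list of T cell genes was tested. ICOS, a costimulatory receptor, was at 73.1 and 40.1 CPM against 0.605 and 3.57 CPM. PTPRC itself was at 352 and 162 CPM against 10.9 and 23.7 CPM, a log2 fold change of 3.86 ± 0.55 (edgeR adjusted p = 0.0418). SFRP2, a secreted Wnt modulator of fibroblasts, was at 939 and 938 CPM against 189 and 190.1 CPM, and TNFAIP6, a hyaluronan-binding protein, at 498 and 549 CPM against 58.6 and 75.0 CPM. ICOS, CTLA4, CD28, PTPRC, SFRP2 and TNFAIP6 were chosen after their values were seen.

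Of the 5 genes that fell, 4 met the rule for naming. KAZALD1, an insulin-like growth factor binding protein relative, was at 4.67 and 23.3 CPM in injured and 319 and 337 CPM in normal members, a log2 fold change of −4.50 ± 0.69 (edgeR adjusted p = 0.0462). Lipoprotein lipase, LPL, was at 56.7 and 66.1 against 311 and 434 CPM. The hedgehog inhibitor HHIP was at 15.7 and 18.5 against 73.2 and 89.7 CPM. ADGRL4, an adhesion receptor of endothelium, was at 29.7 and 26.0 against 125 and 99.5 CPM. The endothelial share of the members moves with ADGRL4, at 19.4% of injured and 33.4% of normal members. Within endothelial members it was at 143 and 165 against 290 and 273 CPM, a log2 fold change of −0.86 that was not called (edgeR adjusted p = 0.781). All 66 genes kept the injured samples on 1 side of the normal ones. The test chose them on these same values, so this is no further support, and the share over all genes was not taken.

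Matched cells outside the rule differed between conditions in the same direction for all 10 of the genes named by the rule. KAZALD1 was at 10.0 and 29.1 CPM against 366 and 360 CPM in matched cells, LPL at 115 and 102 against 362 and 435 CPM, and CCL21 at 527 and 149 against 1.42 and 10.1 CPM. IL1RL1 was at 193 and 39.9 against 3.44 and 2.81 CPM. The immune share of the members moves with the immune genes: cells with the PTPRC flag were 131 of 613 injured (21.4%) and 13 of 473 normal members (2.75%). Among all kept cells the flag was on 20.1% of injured and 4.54% of normal cells. Without them the edgeR test called 4 genes, all among the 66, and CCL21 and EREG stayed with adjusted p-values of 0.0278 and 0.0317. The calls of the genes that fell were lost with the PTPRC-flagged cells left out, at log2 fold changes of −4.15 for KAZALD1, −2.26 for LPL, −2.07 for HHIP and −1.48 for ADGRL4 and edgeR adjusted p-values from 0.106 to 0.195. It called 0 genes without Normal_1 or without Normal_2, with 777 and 1661 at an unadjusted p below 0.05, and 18 without likely doublets. In double-positive cells it called 0 genes, with 825 at an unadjusted p below 0.05, and in TOP2A-only cells 1, CCL21.

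**Figure D5:**
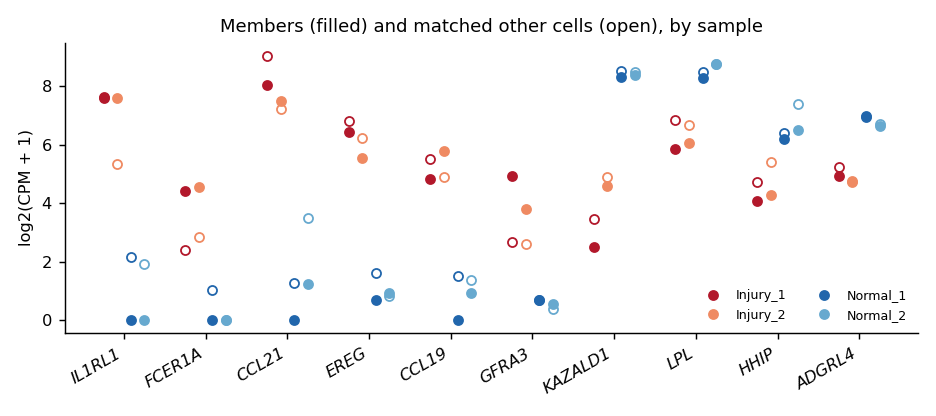
Level of the 10 named genes as log2(CPM + 1) in members (filled) and matched other cells (open), 1 point per sample. The injured samples lie above the normal ones for the 6 genes on the left and below them for KAZALD1, LPL, HHIP and ADGRL4, in matched cells as in members.

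Within single lineages few genes passed. In fibroblast members edgeR called 0 of 3897 genes higher (0%) and 1 lower (0.0257%), the gene without symbol ENSOCUG00000029235, at 2503 and 2065 CPM in injured and 13439 and 14373 CPM in normal members. Its log2 fold change was −2.59 ± 0.21 (edgeR adjusted p = 0.0128), it stood at 2245 and 2100 against 13883 and 13518 CPM in matched cells, and it was not called without likely doublets. The 22 matrix genes tested in them had a median log2 fold change of 0.54, and 0 were called. An unadjusted p below 0.05 was reached by 357 genes, and DESeq2 called 33.

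In endothelial members edgeR called 0 of 4001 genes in either direction (0% and 0%), with 240 at an unadjusted p below 0.05 and 9 calls by DESeq2. The G2/M list had a median log2 fold change of −0.99, with 26 of 28 genes lower in injured members, and the immediate early list one of 0.93, with 8 of 8 higher, beside 50.2% of all genes lower and 49.8% higher. None of these list genes was called. CENPE was at 74.1 and 59.1 CPM in injured against 282 and 93.8 CPM in normal endothelial members. Double-positive cells were 6 of 62 and 5 of 57 endothelial members in Injury_1 and Injury_2, and 15 of 88 and 15 of 70 in Normal_1 and Normal_2. Normal_1 also holds the 12 TOP2A-only endothelial cells with the programme. The part of either in the list's median was not tested.

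In smooth muscle members the chemokine genes CCL19 and CCL2 rose and the protease genes MMP1 and MMP3 fell. The edgeR test called 4 of 2774 genes higher (0.144%) and 2 lower (0.0721%), with 223 at an unadjusted p below 0.05. CCL19 was at 714 and 645 CPM in injured members and 0 in both normal samples, at least 117-fold higher (edgeR adjusted p = 0.00659). CCL2, which draws monocytes, was at 5147 and 1311 against 40.5 and 8.96 CPM, a log2 fold change of 7.04 ± 0.88 (edgeR adjusted p = 0.0251). The collagenase MMP1 was at 0 in both injured samples and at 238 and 331 CPM in the normal ones, at least 36.0-fold lower, and the stromelysin MMP3 at 0 against 213 and 218 CPM, at least 26.2-fold lower. In matched cells CCL2 was at 3057 and 1966 against 124 and 269 CPM, and CCL19 at 701 and 215 against 10.2 and 10.3 CPM. MMP3 was at 0 and 1.30 against 178.3 and 177.7 CPM in them, whereas MMP1 overlapped between conditions, at 125 and 3.91 against 260 and 92.5 CPM. Without Normal_1 the calls of CCL2, MMP1 and MMP3 were lost, with an edgeR adjusted p of 0.0619 for each. All 10 contractile genes were higher in injured smooth muscle members, with a median log2 fold change of 1.10 beside 47.9% of all genes higher, and 0 were called. The matrix list moved the other way in these members, with a median of −0.74 and 6 of 20 genes higher, and 2 of 33 G2/M genes were higher. No gene of either list was called, and the part of cell make-up was not tested. Injury_1 gave 14 of these cells, the fewest.

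Whether a difference between conditions belonged to the members was tested directly, as the interaction of condition with membership in a fit with a term for each sample. In injured samples CXCL8, IL1A, GPNMB and LGALS3 were lower in members than in matched cells, and in normal samples they were closer. The edgeR test gave 14 of 7956 genes, 3 with a positive (0.0377%) and 11 with a negative (0.138%) interaction, and 801 at an unadjusted p below 0.05. None of the 66 genes called between conditions was among the 14. CXCL8, the neutrophil chemokine, was at 1970 and 2029 CPM in injured members against 4998 and 4556 CPM in their matched cells, and at 414 and 1354 against 408 and 976 CPM in normal samples. GPNMB, a glycoprotein of macrophages, was at 63.7 and 58.9 against 340 and 188 CPM in injured and at 62.3 and 95.5 against 47.6 and 83.0 CPM in normal samples. LGALS3, a galectin, was at 1203 and 760 against 2676 and 1383 CPM in injured samples, with 577 and 712 against 623 and 696 CPM in normal ones.

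APOD and ARHGDIB went the other way. The lipocalin APOD was at 1938 and 1521 CPM in injured members against 893 and 721 CPM in matched cells, and at 4785 and 1091 against 4372 and 929 CPM in normal samples. ARHGDIB, expressed mainly in leukocytes, was at 381 and 301 against 157 and 119 CPM in injured and 146 and 87.5 against 116 and 72.7 CPM in normal samples, and its call was lost without Normal_1, at an edgeR adjusted p of 0.0597. Matching holds the flags but neither the leukocyte subtype nor the full depth of the immune members, and 4 macrophage genes were low in the immune members, as given above. The part of subtype and depth in the interaction was not tested. With all other cells in place of matched ones 3 genes were called, of which 2 were among the 66 and none among the 10 interaction genes with a symbol.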

How the data were processed

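UMI counts per gene and cell barcode were deposited by the authors as whole numbers, made with Cell Ranger 6.0.1 and filtered to cell barcodes. The genome build is not given in the sources used here. The authors' clustering was not used. Members, lineage flags, gene lists and tests were chosen with earlier results of these data known.

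Cells were kept at 500 UMIs, 200 genes and 15% mitochondrial UMIs (13 genes) or better. Doublets stayed in. The 5% of cells with the highest Scrublet score in each sample (scanpy 1.11.5) were removed as an alternative. Counts were summed per sample and tested with edgeR 4.0.16 (filterByExpr, TMM, quasi-likelihood, Benjamini-Hochberg, threshold 0.05) in R 4.3.3, with DESeq2 1.42.0 as an alternative. A lineage was fitted where every sample had at least 10 members. Single values used exact permutation tests. Thinning is the exact expectation over draws of 2000 UMIs, which left out 1202 shallower cells. Figures were drawn with matplotlib 3.10.9. Counts of replicate samples differed beyond sampling noise (chi-square per degree of freedom 18.6 and 20.8).

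Named genes were TOP2A, CDK1 and the flag genes, the 12 highest and 8 lowest genes against matched cells with at least 50 CPM, the leading members of each list, and up to 6 genes per direction in each test with at least 20 CPM and no overlap between conditions. A gene that the rule names is not reported here. On simulated counts the edgeR test found 65.2% of 4-fold changes among all members, 86.9% in fibroblast, 80.5% in endothelial and 19.1% in smooth muscle members, and 0.943 to 11.1% of 2-fold changes. False calls were 8 of 80, 10 of 105, 13 of 94 and 2 of 21 calls in the same order, above the nominal 5% (9.52 to 13.8%).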

Additional observations from a re-analysis of the deposited data

Results flagged for a closer look

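The interaction of condition with membership passed the edgeR quasi-likelihood test, with Benjamini-Hochberg adjustment, for 10 genes that have a symbol, so that the injured-normal difference in members differed from that in matched cells. On the log2 scale the difference was 0.93 for APOD (adjusted p = 0.0029), 1.02 for ARHGDIB (0.0101), −1.51 for CXCL8 (0.00357), −2.32 for GPNMB (0.00514), −1.44 for IL1A (0.0103), −0.96 for LGALS3 (0.0106) and −1.32 for S100A9 (0.0179), with the levels of 5 of these given above. IL1A, an inflammatory cytokine, was at 463 and 254 CPM in injured members against 1132 and 757 CPM in matched cells, and at 148 and 557 against 178 and 473 CPM in normal samples. S100A9, a neutrophil and monocyte protein, was at 33.7 and 33.8 against 124 and 132 CPM in injured samples and at 56.8 and 89.7 against 73.9 and 151 CPM in normal ones. Without Normal_1 the calls of ARHGDIB and S100A9 were lost, at edgeR adjusted p-values of 0.0597 and 0.0737. Against all other cells in place of matched ones all 10 genes lost their call, at edgeR adjusted p-values from 0.127 for ARHGDIB to 0.951 for GLNB2.

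The difference for GLNB2 was 4.37 (edgeR adjusted p = 0.0029). It rests on Normal_1, where the matched cells had 870 CPM and the members 61.7 CPM. All other values of GLNB2 were below 13 CPM, and without Normal_1 the edgeR adjusted p was 0.186.

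Among the genes with a symbol the plasma cell genes gave the largest values, −13.28 for MZB1 (edgeR adjusted p = 0.00733) and −8.50 for JCHAIN (0.0308). MZB1 was at 14.0 and 2.09 CPM in injured members against 54.3 and 60.8 CPM in matched cells, and at 0 and 59.4 against 0 and 0 CPM in normal samples. JCHAIN was at 16.3 and 3.89 against 150 and 148 CPM in injured samples and at 1.81 and 18.7 against 1.01 and 0 CPM in normal ones. Both sizes depend on the values at 0 and are no fold, and both calls were lost without Normal_2, at edgeR adjusted p-values of 1 and 0.0603.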

How the results depend on the processing

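The direction of the member share was not stable. Its injured minus normal difference of 0.547 points became −0.143 with a mitochondrial limit of 10% and −0.214 with any cell holding 1 TOP2A UMI. It was −0.666 in TOP2A-only cells (chosen after seeing the data), and ran from −0.544 to 1.64 leaving out each sample. With 4 other G2/M genes as the rule it rose to 4.12 points. Shares were then 9.70 and 9.89% in Injury_1 and Injury_2 against 6.45 and 4.91% in Normal_1 and Normal_2. The exact permutation p was 0.33, the smallest possible. The thinned difference of −0.0376 became 0.0465 without a mitochondrial limit and 0.0604 in double-positive cells, and ran from −0.378 to 0.303 leaving out each sample. It became 0.897 with 4 other G2/M genes as the rule. Both injured samples again lay above both normal ones there, at 2.34 and 1.76% against 1.23 and 1.08%. The G2/M over S difference became 0.30 on the log2 scale in fibroblast members and ran from −0.169 to 0.0426 leaving out each sample. The thinned epithelial minus endothelial share became 0.0778 points in double-positive cells and 0.0772 with the 4 other genes. The number of lineages called became 1 without a mitochondrial limit and 1 with all kept cells as offset, which also takes in the number of cells of the lineage. The cause of these changes was not tested.

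Counts of genes called moved as follows. With upper quartile scaling they were 41 over all members, 2 in fibroblast and 1 in endothelial members. With no filter on low counts they were 395, 151, 69 and 76 in all, fibroblast, endothelial and smooth muscle members and 54 for the interaction, and with DESeq2 155, 33, 9, 27 and 24. Without likely doublets they were 18 over all members, 0 in fibroblast members and 8 for the interaction, and with all other cells as comparison the interaction gave 3. Leaving out each sample gave 0 to 217 over all members, 21 to 132 in fibroblast, 18 to 168 in endothelial and 2 to 141 in smooth muscle members and 17 to 101 genes for the interaction, where a lone sample is assumed to vary like the others. In alternatives chosen after seeing the data the count over all members was 0 in double-positive cells, 1 in TOP2A-only cells and 4 without PTPRC-flagged cells. The 65 genes past the fold in either direction became 156 with 1 CPM added, 14 with 50 CPM, 20 in fibroblasts, 204 in double-positive and 1 in TOP2A-only cells, and up to 100 leaving out a sample.

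The labels do not say whether samples with the same replicate number share anything else, and they were treated as unpaired. The deviations of Injury_1 and Normal_1 from their group means correlated at −0.0158, which with 2 samples a group does not settle the point. The replicate block, which leaves 1 residual degree of freedom, gave 182 genes over all members, 1 in fibroblast, 4 in endothelial and 43 in smooth muscle members, and an immune log2 fold change of 2.72 (edgeR adjusted p = 0.268). For the 24 results of named genes that passed their test, 175 of 247 values under the alternatives kept direction and call and 72 lost the call. The pairs of lineages could not pass at any setting and are not counted. At this depth and with 2 samples a group 2-fold changes were mostly out of reach on simulated counts, and depth and sample number were not varied apart.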
